A study of Homo sapiens with 2 samples.

Results

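Open chromatin was examined at 9 human genes whose products remove methylglyoxal (MGO), remove related sugar adducts from proteins or belong to the same enzyme families: GLO1, HAGH, HAGHL, GLOD4, PARK7, FN3K, FN3KRP, AKR1A1 and AKR1B1. The genes were chosen by name from 20033 protein-coding genes of GENCODE 44 on chromosomes 1 to 22, X and Y. The data are ATAC-seq peaks, the stretches of DNA in which the Tn5 transposase inserted adapters more often than in the background. All cells were 293T, an established line from human embryonic kidney that carries SV40 large T antigen. The values thus stand for 1 line in culture, and each condition is 1 library from 50000 cells. Control cells received fresh medium (1 label of the control sample names PBS as its treatment) and treated cells received fresh medium with 0.5 mM MGO, and both were harvested after 12 h. All deposited peaks were used, 36142 in the control list and 22884 in the MGO list, down to a q value of 0.0986 and 0.0988. Neither list holds read counts, so how many reads lie behind a peak is unknown. Since each condition has 1 library, no difference could be tested or set against replicates, and all values describe these 2 libraries.

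MGO is a reactive dicarbonyl that arises as a by-product of glycolysis and adds to lysine and arginine side chains. Cells clear it mainly through the glyoxalase system, in which glyoxalase I (GLO1) isomerizes the adduct of MGO and glutathione and glyoxalase II (HAGH) hydrolyses the product to D-lactate. Aldehyde reductase (AKR1A1) and aldose reductase (AKR1B1) reduce MGO with NADPH. DJ-1 (PARK7) has been described as a deglycase, and fructosamine-3-kinase (FN3K) phosphorylates sugar adducts on proteins so that they fall off. FN3KRP is its close relative, and HAGHL and GLOD4 are named for their likeness to the glyoxalases.

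The DNA upstream of 3 of these genes is shown first. GLO1 and PARK7 have a peak in both lists and a match to a stress-response motif, and HAGH has a repeated CCAAT box. GLOD4 also has a peak in both lists and such a match, and is not printed. The sequences are from RefSeq, build GRCh38.p14, written 5′ to 3′ on the strand of the gene. Of the 250 bases before each start, only the longest stretch that no GENCODE exon covers is printed. Capitals mark matches, on either strand, to the core of the antioxidant response element (TGACNNNGC), the AP-1 site (TGANTCA), the GC box (GGGCGG), the CCAAT box (CCAAT) and the ETS site (CCGGAAG). GLO1 is read from chr6:38703146-38703395 on the minus strand, HAGH from chr16:1826842-1826940 on the minus strand, and PARK7 from chr1:7961461-7961662 on the plus strand.
GLO1: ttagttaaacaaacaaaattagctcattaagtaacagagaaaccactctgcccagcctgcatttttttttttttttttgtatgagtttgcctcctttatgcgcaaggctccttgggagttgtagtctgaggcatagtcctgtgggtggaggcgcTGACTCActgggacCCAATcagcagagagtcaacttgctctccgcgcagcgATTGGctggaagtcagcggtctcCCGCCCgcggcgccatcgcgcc
HAGH: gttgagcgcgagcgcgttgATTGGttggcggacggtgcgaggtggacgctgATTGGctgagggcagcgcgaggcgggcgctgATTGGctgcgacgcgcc
PARK7: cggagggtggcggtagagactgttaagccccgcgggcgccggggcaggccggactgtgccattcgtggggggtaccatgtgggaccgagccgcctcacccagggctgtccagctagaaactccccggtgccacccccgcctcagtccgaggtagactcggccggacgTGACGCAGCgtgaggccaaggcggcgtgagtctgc

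Over the 300 bases from 250 before to 50 after the start, the sequence of 7 of the 9 genes was in the RefSeq table, all but HAGHL and FN3KRP, and matches are given for 6 of them: GLO1, HAGH, GLOD4, PARK7, AKR1A1 and AKR1B1. The antioxidant response element core, the letters bound by NRF2 with a small MAF protein, matched once in PARK7, 83 bp upstream of the start, and once in GLOD4, 82 bp upstream. Of 35116 promoters of the same length, 13.3% held such a match. Both matches lay inside the control and the MGO peak. Among these 6 genes GLO1 held the only AP-1 match, 96 bp upstream and inside both peaks, and 7.71% of all promoters held one. The CCAAT box matched 3 times in HAGH, 2 times in GLO1 and 1 time in AKR1B1, against 34.6% of promoters with a match. The GC box matched 2 times in AKR1A1, 2 times in AKR1B1 and 1 time in GLO1, and 45.0% of promoters held it. Of the 6 genes, the ETS site matched in GLOD4 alone, 232 bp upstream, inside the MGO peak and outside the control peak, and 10.3% of promoters held it. The antioxidant element and the AP-1 site can share letters, but no match in these 6 genes was counted for both. A match describes the letters and does not show that a factor binds there.

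Of the 9 genes, 8 had a promoter peak, that is a peak within 1000 bp of an annotated start of the gene, in control and the same 8 had one under MGO. Each of these genes had 1 promoter peak in each list, and in every case the control and the MGO peak overlapped. FN3K was the exception, with no promoter peak in either list. Over all protein-coding genes a promoter peak was found for 67.3% in control and for 63.9% under MGO, 93.0% of the genes with a control promoter peak also had an MGO promoter peak, and 31.4% had neither. The 8 control promoter peaks covered 8022 bp, of which 6408 bp or 79.9% lay under an MGO peak. The same share was 74.2% over the control promoter peaks of all protein-coding genes, each peak counted once.

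**Figure D1:**
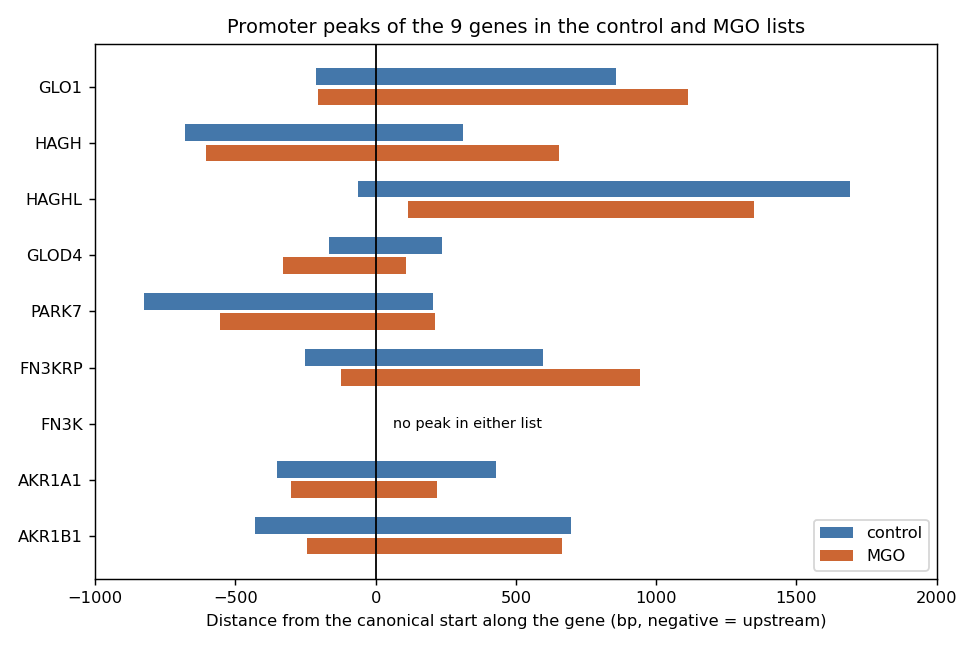
Position of the promoter peaks of the 9 genes in the control and the MGO list, as bars along the gene in bp from the start of the canonical transcript at 0. The bars of both lists overlap at 8 genes, FN3K has none, and the MGO bar of HAGHL begins 114 bp after the start.

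Among the glyoxalases, the GLO1 promoter was covered more widely under MGO. GLO1 lies on chromosome 6 from 38675925 to 38703145 on the minus strand, and its canonical start is at 38703145. The control peak ran from 38702287 to 38703359, or 1073 bp, and the MGO peak from 38702030 to 38703351, or 1322 bp. They shared 1065 bp, which is 99.3% of the control peak and 80.6% of the MGO peak. Both reached about as far upstream, 214 bp in control and 206 bp under MGO, so the added length lay downstream, in an intron, with an end 858 bp after the start in control and 1115 bp under MGO. Intron made up 63.7% of the control peak and 71.2% of the MGO peak. The authors' fold enrichment over background was 3.26 in control and 3.62 under MGO, and the −log10 p was 6.35 and 7.69. GLO1 was the only member with a higher fold enrichment in the MGO list.

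HAGH, on chromosome 16 from 1795620 to 1827157 on the minus strand, showed much the same form. Its control peak ran from 1826515 to 1827505 (991 bp) and its MGO peak from 1826171 to 1827429 (1259 bp), both over the canonical start at 1826825, with 915 bp in common. The MGO peak ended 654 bp downstream of the start, against 310 bp in control, and began 604 bp upstream, against 680 bp. Fold enrichment was 3.45 in control and 3.43 under MGO, while the −log10 p was 6.92 and 8.11. The peak is shared with the start of FAHD1, a neighbouring gene, so it cannot be given to HAGH alone.

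HAGHL, on the same chromosome from 726936 to 735525 on the plus strand, had the widest control peak and the weakest peaks of the set. The control peak ran from 727043 to 728797 (1755 bp) with a fold enrichment of 2.47 and a −log10 q of 2.04. The MGO peak ran from 727220 to 728456 (1237 bp) with 2.21 and 1.44. It lay wholly inside the control peak but did not cover the canonical start at 727106, from which it was 114 bp away, and it held 9 of the 17 annotated starts where the control peak held 14. The bases of both peaks lay over exons of HAGHL transcripts, and both lay within 1000 bp of a start of CCDC78. In the MGO list the q value of 0.0361 is above the limit of 0.01 that the methods set, and in the control list the q value of 0.00907 is just under it.

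GLOD4, on chromosome 17 from 757097 to 782294 on the minus strand, had the narrowest peaks. They ran from 782042 to 782447 (406 bp) in control and from 782172 to 782612 (441 bp) under MGO, over the canonical start at 782280, and shared 276 bp, or 68.0% of the control and 62.6% of the MGO peak. Here the MGO peak was displaced away from the gene: it reached 332 bp upstream, against 167 bp in control, and 108 bp downstream, against 238 bp. On the upstream side lies MRM3, whose start is within 1000 bp of both peaks. Fold enrichment was 3.36 and 3.20 and the −log10 p 5.08 and 5.70 in control and MGO.

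PARK7, the gene of DJ-1, lies on chromosome 1 from 7954291 to 7985505 on the plus strand. Its control peak ran from 7960884 to 7961915 (1032 bp) and its MGO peak from 7961157 to 7961921 (765 bp). The downstream ends differed by 6 bp, and the MGO peak began 554 bp upstream of the canonical start at 7961711, where the control peak began 827 bp upstream. The upstream bases covered in control alone lay in an intron of a longer PARK7 transcript that starts further upstream. Fold enrichment was 3.94 in control and 3.79 under MGO, with a −log10 p of 9.85 and 7.97, and the −log10 q of 7.22 and 5.23 was well past 2 in both lists.

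FN3K and FN3KRP, the paired ketosamine kinases, sit in tandem on the plus strand of chromosome 17, with 5286 bp between the end of FN3KRP and the start of FN3K, and they differed in both lists. FN3KRP, from 82716706 to 82730328, had a control peak from 82716453 to 82717304 (852 bp) and an MGO peak from 82716582 to 82717648 (1067 bp), with 723 bp in common. Its fold enrichment was 3.81 in control and 2.74 under MGO and its −log10 p 9.04 and 5.61, so the MGO peak was wider and weaker. It reached 942 bp downstream of the start, against 598 bp in control. Both peaks also lay within 1000 bp of the start of an unnamed lncRNA gene, and with HAGH, HAGHL and GLOD4 this made 4 of 8 members whose promoter peak was shared with another gene, against 48.5% of all protein-coding genes with a control promoter peak and 49.4% under MGO. FN3K, from 82735615 to 82751196, had no peak in either list within 1000 bp of any of its 4 starts or anywhere over its 15.6 kb body. The peaks nearest to its start were those of TBCD, 16.2 kb downstream in control and 16.0 kb under MGO, and those of FN3KRP, 18.3 kb and 18.0 kb upstream.

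The aldo-keto reductases differed from each other in strength. AKR1B1, the gene of aldose reductase on chromosome 7 from 134442356 to 134459284 on the minus strand, had the strongest promoter peak in both lists. It ran from 134458403 to 134459531 (1129 bp) in control, with a fold enrichment of 5.45 and a −log10 p of 37.5, and from 134458434 to 134459346 (913 bp) under MGO, with 5.37 and 27.9. These values stood at or above those of 99.8% of control peaks and 99.5% of MGO peaks by −log10 p. The MGO peak lay wholly inside the control peak. It reached 246 bp upstream of the start at 134459100, against 431 bp in control, and 666 bp downstream, against 697 bp.

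AKR1A1, the gene of aldehyde reductase on chromosome 1 from 45550543 to 45570049 on the plus strand, had the lowest ratio of MGO to control of the set in both width (0.663) and fold enrichment (0.687). In control its peak ran from 45550473 to 45551256 (784 bp) with a fold enrichment of 4.14 and a −log10 p of 9.12. Under MGO it ran from 45550525 to 45551044 (520 bp) with 2.84 and 4.42, wholly inside the control peak and over the canonical start at 45550826. The −log10 q was 6.52 in control and 1.99 under MGO, a q value of 0.0103 that misses the limit of 0.01 narrowly. Only AKR1A1 and HAGHL had a promoter peak that passed this limit in control and not under MGO. With the limit applied, 8 of the 9 genes had a control promoter peak and 6 an MGO promoter peak, beside 63.3% and 57.8% of all protein-coding genes. Of the genes with a control promoter peak under this limit, 89.1% also had one under MGO.

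**Figure D2:**
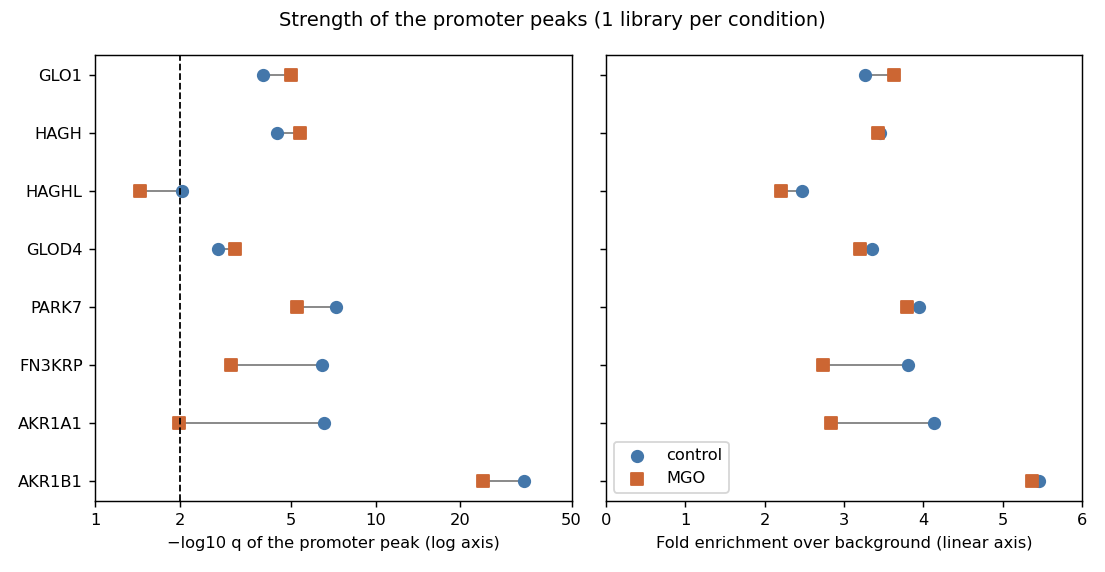
Strength of the promoter peak of 8 genes in the control (circles) and the MGO list (squares), as −log10 q on a log axis with a dashed line at 2 (left) and as the authors' fold enrichment on a linear axis (right). AKR1B1 stands apart at 33.8 and 24.1 on the left, AKR1A1 and HAGHL lie left of the dashed line under MGO, and GLO1 alone lies further right under MGO in fold enrichment.

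Set against all genes, the members were mixed in direction. The MGO peak was narrower at 4 genes (HAGHL, PARK7, AKR1A1 and AKR1B1) and wider at 4 (GLO1, HAGH, GLOD4 and FN3KRP), while the covered promoter length was lower under MGO for 67.9% of the 12545 protein-coding genes with a promoter peak in both lists. The median ratio of MGO to control length was 0.947 over the 8 genes, from 0.663 at AKR1A1 to 1.27 at HAGH, and 0.897 over all such genes. Fold enrichment was lower under MGO at 7 of the 8 genes, near the 75.6% of all genes. The −log10 p was lower at 5 of the 8 genes, all but GLO1, HAGH and GLOD4, and at 78.0% of all genes. The median ratio of fold enrichments was 0.958 over the members and 0.918 over all genes.

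The edges of the peaks were compared over the 10824 protein-coding genes with 1 promoter peak in each list. The upstream edge lay nearer to the gene under MGO at 7 of the 8 members, all but GLOD4, and at 68.6% of these genes. The median shift was −102.5 bp over the members and −64.5 bp over the genes, negative where the MGO peak reached less far upstream. At GLO1 the upstream shift was only −8 bp. The downstream edge reached less far under MGO at 4 of the 8 members (HAGHL, GLOD4, AKR1A1 and AKR1B1) and at 57.1% of the genes. It reached further at GLO1 by 257 bp, at HAGH and FN3KRP by 344 bp each and at PARK7 by 6 bp.

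Each gene's promoter peak was also ranked by −log10 p among all genes with a promoter peak in the same list, as a percentile from the weakest. The median change of this rank from control to MGO was −1.06 percentile points over all genes with both peaks, with a middle range from −12.3 to 8.43. AKR1A1 stood at percentile 50.02 in control and 9.35 under MGO, a change of −40.7, and 1.95% of genes had a change as low or lower. FN3KRP stood at 49.3 and 25.3, a change of −24.0 (10.5% as low or lower). GLO1 differed in the other direction, with 25.5 in control and 50.5 under MGO, a change at or above that of 94.1% of genes. HAGH stood at 31.3 and 55.1, a change at or above that of 93.4%. AKR1A1 had the lowest and GLO1 the highest change among the 8 members. Their shares are each for a single gene, not for the most extreme of 8. The difference was 13.2 for GLOD4, −4.35 for HAGHL, −1.76 for PARK7 and −0.0245 for AKR1B1. The ranks stand on 13491 genes in control and 12798 under MGO, and the peak ranked for HAGH is the one it shares with FAHD1.

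**Figure D3:**
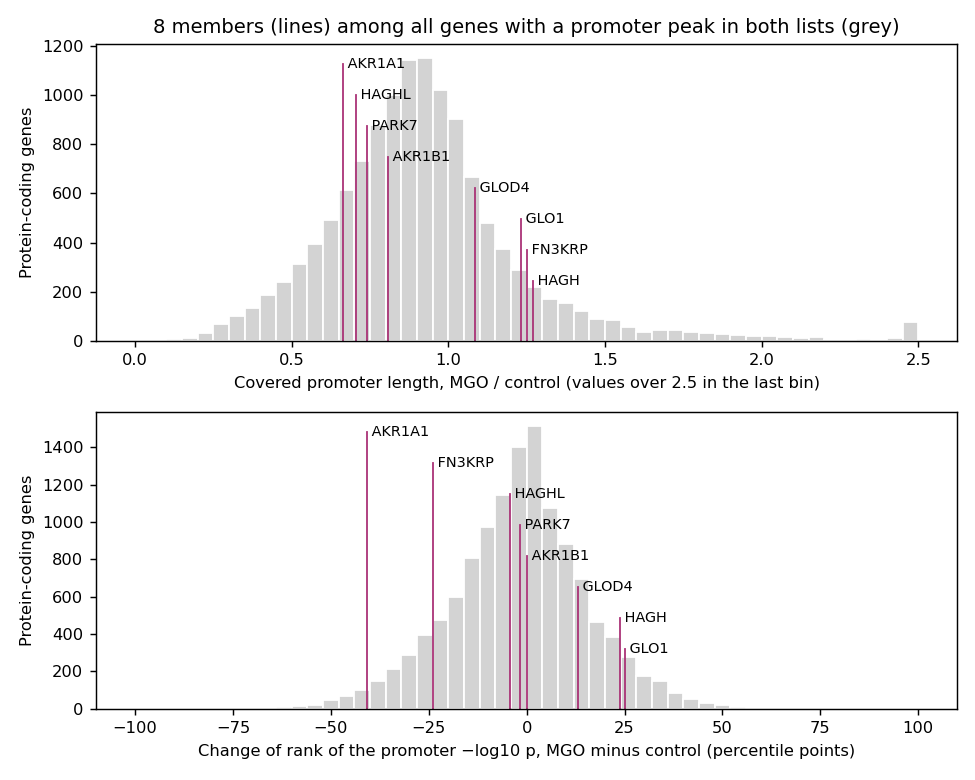
Distribution over 12545 protein-coding genes with a promoter peak in both lists (grey bars, number of genes) of the ratio of covered promoter length, MGO over control (top), and of the change of the promoter's rank by −log10 p, MGO minus control, in percentile points (bottom). Lines mark the 8 members (their heights only separate the names), which lie on both sides of the middle. Among the members, AKR1A1 is lowest in both plots, and HAGH and GLO1 are at or near the high end. Of all genes, 17.0% had a width ratio as low as that of AKR1A1 or lower.

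The 9 gene bodies held 9 peaks in control and 8 under MGO, and all but 1 were the promoter peaks described above. A body peak that was no promoter peak of the gene was thus found for 1 of the 9 members in control and 0 under MGO, and for 24.8% and 15.1% of all protein-coding genes. The exception was a control peak in AKR1B1 on chromosome 7 from 134452926 to 134453307 (382 bp), 1120 bp from the nearest annotated start, with a fold enrichment of 2.73 and a −log10 q of 1.68. It overlapped no exon of AKR1B1 and no MGO peak.

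Within 50 kb of the canonical starts there were 22 control and 21 MGO peaks, each counted once, since the windows of FN3K and FN3KRP overlap. Of the control peaks, 8 were member promoters, 12 lay within 1000 bp of the start of another protein-coding or lncRNA gene and 2 were away from any start. Of the MGO peaks these numbers were 8, 12 and 1. Overlap with the other list was complete for member promoters, 11 of 12 in both directions for the starts of other genes and absent for the distal peaks. The distal control peaks were that in AKR1B1 and 1 inside TBCD (chromosome 17, 82781385 to 82781844), and the distal MGO peak lay inside RAB40B (chromosome 17, 82671514 to 82672231). Overlap for 0 of 2 distal control peaks has an exact 95% binomial interval from 0 to 84.2%, for counting error only, and 24.3% of all control peaks away from starts overlapped an MGO peak. Of all MGO peaks away from starts, 54.8% overlapped a control peak. Of all peaks within 1000 bp of a start, 84.6% of those in control and 95.6% of those under MGO overlapped the other list.

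The windows differed in how many peaks they held. GLO1 and PARK7 had 1 peak each in both lists, their own promoter peak, in 100 kb. HAGHL had 5 in both, in a window where 9 other protein-coding genes start. The median over the 9 genes was 3 peaks in each list, and 2 over all protein-coding genes. Peaks in 1 list only were a control peak at METRN and an MGO peak at STUB1, both in the HAGHL window, beside the 3 distal peaks. Covered length in the window was higher under MGO for GLO1, HAGH and FN3KRP, with ratios of 1.23, 1.38 and 1.22, and lower for the other 6 genes, down to 0.579 at AKR1B1. It was lower under MGO for 77.1% of the 16438 protein-coding genes with a peak in the window in both lists, and the median ratio was 0.863 over the 9 members and 0.806 over these genes. In the AKR1B1 window a peak at the lncRNA gene LINC03060, 25.9 kb downstream, was close to the promoter in strength, with a fold enrichment of 5.52 in control and 5.88 under MGO and a −log10 p of 30.1 and 21.6. It measured 916 bp in control and 493 bp under MGO. In the AKR1A1 window the neighbours differed in direction. The promoter peak of PRDX1, which encodes a peroxiredoxin, had a −log10 p of 7.60 in control and 5.18 under MGO, and that of NASP, which encodes a histone chaperone, 7.63 and 11.2. The peak at NASP also lay within 1000 bp of a start of an unnamed gene in both lists, so it cannot be given to NASP alone.

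**Figure D4:**
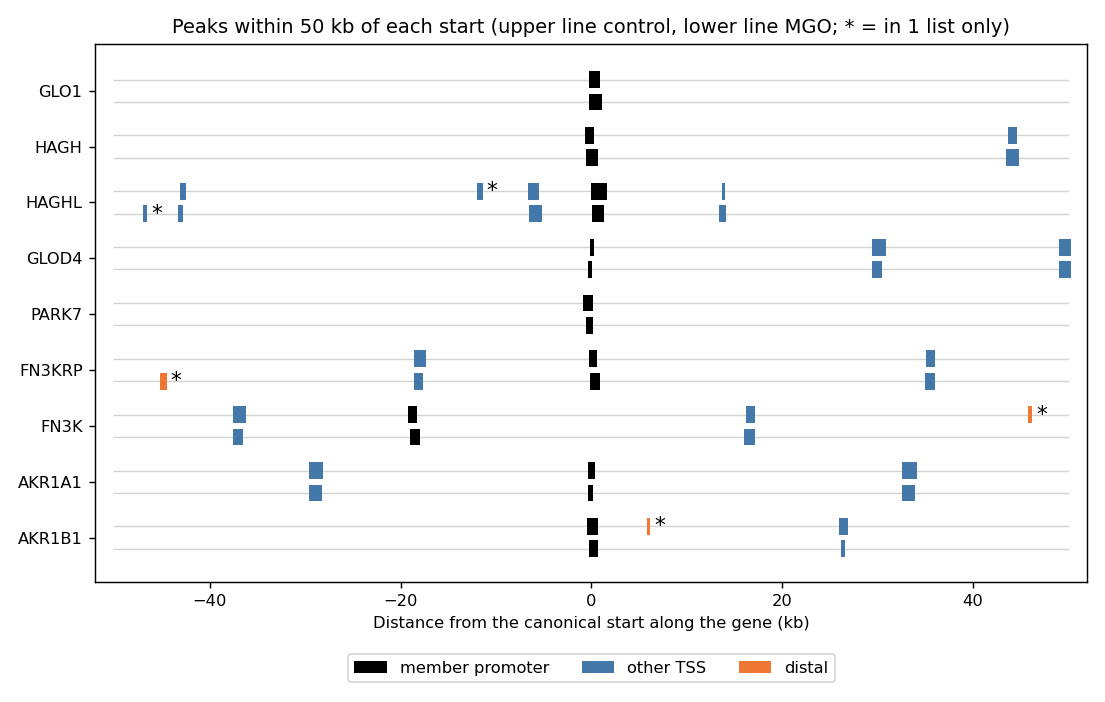
Peaks within 50 kb of the canonical start of each gene, in kb along the gene, with control peaks on the upper and MGO peaks on the lower line of each gene and colours for member promoters (black), starts of other genes (blue) and distal peaks (orange). Asterisks mark the 5 peaks without overlap in the other list, and the black bars left of 0 in the FN3K row are the promoter peaks of FN3KRP.

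Promoter peaks were also set beside base composition, over the same window of 300 bases around the start. GLO1 had a GC content of 52.7%, below the median of 63.7% over protein-coding genes, and 49.3% of the 1578 genes within 2 percentage points of it had a control promoter peak. The other 7 members with a promoter peak ran from 61.3% at AKR1A1 to 81.0% at HAGHL. Of the 917 genes within 2 points of HAGHL, 90.3% had a control promoter peak and 86.4% an MGO promoter peak. For the remaining members with a promoter peak, the control share of such genes ran from 71.4% at AKR1A1 to 88.0% at FN3KRP. The MGO share ran from 68.2% to 84.7% at the same members. Over all protein-coding genes the control share was 67.3%, so genes of like GC content had a peak more often for every member with one but GLO1.

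Other genes of carbonyl and glutathione metabolism, 26 in all, were counted in the same way. A promoter peak was present for 16 in control and 14 under MGO, and for 14 in both. Over all protein-coding genes the shares were 67.3% and 63.9%, and 93.0% of those with a control promoter peak also had an MGO promoter peak. AKR1C3 and ETHE1, a relative of glyoxalase II that acts on sulfide-derived persulfides, had a promoter peak in control only. Their −log10 q was 1.34 and 1.59, short of the limit of 2. The 14 genes with both peaks passed that limit in each list. The 10 genes without a peak were AGER, the receptor for advanced glycation end-products, the aldo-keto reductases AKR1B10, AKR1B15, AKR1C1, AKR1C2, AKR1E2 and AKR7A3, ALDH1A1, GLOD5 and LDHD, a D-lactate dehydrogenase. Of the 14 genes with both peaks, the −log10 p was lower under MGO at 12, beside 78.0% of all protein-coding genes with both peaks. The exceptions were ALDH3A2, a fatty aldehyde dehydrogenase, with 9.28 in control and 11.1 under MGO, and GCLC, the catalytic subunit of the enzyme that limits glutathione synthesis, with 12.3 and 13.6. The median ratio of covered length was 0.950, close to the 0.947 of the members, and it was 0.897 over all protein-coding genes with both peaks.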

How the data were processed

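DNA accessibility was measured by ATAC-seq in 1 control and 1 MGO library of 293T cells. Per the labels and the methods, the authors aligned reads to GRCh38 with BWA 0.7.15, took out multi-mapping and mitochondrial reads (Picard 2.16.0 in the submitters' processing notes), drew reads at random to bring the libraries to equal depth, and used MACS2 to call broad peaks outside blacklisted regions. The MACS2 version is not given in the sources used here. For each peak the authors deposited a fold enrichment (a ratio to background), the −log10 p and the −log10 q, and a score made from the q value, which was not used. Peaks are called where reads pass the background, so a peak near the limit can be lost without much loss of reads.

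Starts, genes and exons were taken from GENCODE 44. A promoter peak lay within 1000 bp of any start of the gene, overlap counted from 1 bp, and windows of 50 kb were set around the canonical start. Every peak lay inside its sequence in the genome used, and 627 control and 505 MGO peaks were not on chromosomes 1 to 22, X and Y. The members and lists were chosen with earlier results of these data known. All 9 members were named, and of the 26 other genes those with a promoter peak in 1 list or none, with ALDH3A2 and GCLC named after their values were seen. The neighbours named have a start within 1000 bp of a peak. Alternatives were stricter peak limits, equal peak numbers and other windows and overlaps. Python 3.11.15, numpy 2.4.6, pandas 2.3.3, scipy 1.17.1 and matplotlib 3.10.9 were used, and the promoter counts were checked on a made-up peak list. Some sequence results are not reported here.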

Additional observations from a re-analysis of the deposited data

How the results depend on the processing

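No paired analysis was possible because the groups hold 1 library each and no test was run. Of 44 values from other settings, 22 were like the reported ones (shares inside their 95% binomial interval, counts within 1.5 times, width ratios equal when rounded) and 22 were not. Neighbouring bases of a peak are not independent, so this interval is too narrow for the share of 8022 bases. It is very wide for the share of 2 distal peaks. The tally therefore does not measure how robust the results are. A −log10 q of at least 2 left 58.0% of control promoter bases covered under MGO and turned the median width ratio to 1.16 over 6 genes. A −log10 q of at least 5 left a promoter peak at 4 members in control and 3 under MGO, 44.03% of bases, a ratio of 0.775, and 9 control and 6 MGO peaks within 50 kb. A fold enrichment of at least 4 left 2 and 1 members, 47.7%, 0.809, and 3 and 2 peaks. The limits also thinned the whole lists. Of 36142 control and 22884 MGO peaks, 23907 and 16093 had a −log10 q of at least 2. The limit of 5 left 10492 and 6845, and the fold enrichment limit left 5374 and 2573. Apart from the gene shares given above for the limit of 2, no matching share over all protein-coding genes is given at these limits. The falls are thus not shown to be particular to the members. Equal numbers of peaks gave 82.5% and a ratio of 1.09 over 7 genes, since HAGHL lost its control peak. A start window of 2000 bp gave 76.2% and 0.914, because it takes in the intronic AKR1B1 peak. Within 10 kb there were 10 control and 9 MGO peaks, and within 100 kb 40 and 34. The median width ratio thus lay on both sides of 1. Windows of 500 bp and the canonical start alone returned the reported promoter values. At the stricter limits and with equal numbers of peaks no distal control peak was left near the members, so its share has no value there. Within 100 kb 2 of 7 such peaks (28.6%) overlapped an MGO peak. The unknown read depth of each peak limits every comparison of strength and width.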
